A study of Mus musculus with 16 samples.

Results

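The 31 genes described here encode enzymes of cholesterol and fatty acid synthesis and proteins that regulate them. They were taken by mouse Entrez ID from a table of 19665 genes, and all 31 were found and passed the filter on low counts. Of these, 17 encode enzymes of the sterol pathway (the sterol arm), 10 encode enzymes that make, elongate or desaturate fatty acids (the fatty acid arm), and 4 are the regulators Srebf1, Srebf2 and Insig1 and the cholesterol carrier Stard4. Messenger RNA was sequenced from 2 cell lines derived from mammary tumours of MMTV-PyMT mice, a breast cancer model on the FVB/N background in which a viral promoter drives polyoma middle T antigen in mammary epithelium. Line 631 (WT) had 2 intact copies of Pygo2, and line 828 (AE) had the A342E substitution knocked into both copies. Pygo2 is a chromatin-bound co-factor of beta-catenin in the Wnt pathway. Cells of both lines grew in DMEM with 10% fetal bovine serum, which itself carries lipids. One experiment added the cytokine TGFb (2 ng/ml) over 4 days, the other the Wnt ligand Wnt3a (100 ng/ml) over 3 days, and each had untreated cells of its own. The 8 groups had 2 libraries each. With 1 line per genotype, genotype and line cannot be told apart in any difference between AE and WT.

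Cholesterol is built from acetyl-CoA through mevalonate, isoprenoid diphosphates, squalene and lanosterol. Fatty acids are built from the same acetyl-CoA after its carboxylation to malonyl-CoA, and are then elongated and desaturated. Both routes are under the SREBP transcription factors, which Srebf1 and Srebf2 encode. Insig proteins hold the SREBPs in the endoplasmic reticulum while sterols are plentiful, and their release raises transcription of the enzymes. Srebf2 is best known for the sterol genes and Srebf1 for the fatty acid genes. In mammary epithelium these enzymes supply milk fat, and in growing tumour cells they supply membrane.

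Total counts ran from 20530538 to 26191846 per library, and levels are given as CPM, a gene's count relative to its library's TMM-scaled total, replicate 1 before replicate 2. Fold changes are log2 values with their standard error, and a call needed an adjusted p (Benjamini-Hochberg over 13172 genes, edgeR's quasi-likelihood test) under 0.05. The submitters call the duplicates biological, but no label says whether they were separate cultures; p-values then measure only the spread of these libraries, which may be technical. The SD of the log2 ratio of replicates across genes was 0.28 to 0.48 in the 4-day groups and 0.48 to 0.96 in the 3-day groups, and 1 spread was fitted to both. Epithelial markers summed to 1407 to 3753 CPM in the 16 libraries. Of the adipocyte markers, Adipoq had at most 1 count and Fabp4 at most 2.55 CPM in any library, immune markers summed to at most 7.45 CPM, and endothelial markers to at most 2.78 CPM. Fibroblast markers summed to 4.77 to 46.6 CPM in WT and to 107 to 261 CPM in AE. In untreated AE this sum was nearly all Pdgfra and Col1a1, with means of 143 and 71.7 CPM. Dcn had at most 0.101 CPM in any untreated library, and Lum was at 0 in all of them. Whether AE held any fibroblasts was not tested. In bulk RNA, fewer cells of a type and less RNA per cell cannot be told apart.

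The stretches just upstream of 5 start sites are shown because 4 of these sterol genes were lower in untreated AE and rose with Wnt3a in AE, while Fads2 was higher in untreated AE. Each holds the 250 bases before the annotated start (RefSeq, GRCm38.p6), 5′ to 3′ on the gene's strand. Capitals mark CCAAT or its complement ATTGG, the box bound by NF-Y, and CACNCCAC, the core of the sterol regulatory element bound by SREBPs.
Hmgcs1, chr13:119690101-119690350, plus strand: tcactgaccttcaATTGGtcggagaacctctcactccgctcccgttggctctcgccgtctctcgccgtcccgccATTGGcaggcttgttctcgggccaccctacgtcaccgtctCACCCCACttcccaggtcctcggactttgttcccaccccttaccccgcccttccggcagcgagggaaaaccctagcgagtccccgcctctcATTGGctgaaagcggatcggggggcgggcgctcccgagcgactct
Idi1, chr13:8885356-8885605, plus strand: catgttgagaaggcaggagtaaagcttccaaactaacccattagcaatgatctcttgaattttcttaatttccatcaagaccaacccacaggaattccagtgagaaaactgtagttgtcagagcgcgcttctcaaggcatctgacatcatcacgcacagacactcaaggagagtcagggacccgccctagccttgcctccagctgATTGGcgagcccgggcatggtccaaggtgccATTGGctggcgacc
Cyp51, chr5:4104698-4104947, minus strand: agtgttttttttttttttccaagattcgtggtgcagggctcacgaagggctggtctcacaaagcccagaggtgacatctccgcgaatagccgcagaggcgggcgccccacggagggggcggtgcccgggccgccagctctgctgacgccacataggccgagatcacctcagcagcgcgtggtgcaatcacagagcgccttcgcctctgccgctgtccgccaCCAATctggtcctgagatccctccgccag
Msmo1, chr8:64733579-64733828, minus strand: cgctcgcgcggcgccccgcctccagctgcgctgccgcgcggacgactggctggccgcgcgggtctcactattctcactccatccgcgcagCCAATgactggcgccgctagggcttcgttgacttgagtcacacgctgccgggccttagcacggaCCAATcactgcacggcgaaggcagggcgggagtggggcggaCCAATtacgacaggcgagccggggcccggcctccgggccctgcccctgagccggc
Fads2, chr19:10101504-10101753, minus strand: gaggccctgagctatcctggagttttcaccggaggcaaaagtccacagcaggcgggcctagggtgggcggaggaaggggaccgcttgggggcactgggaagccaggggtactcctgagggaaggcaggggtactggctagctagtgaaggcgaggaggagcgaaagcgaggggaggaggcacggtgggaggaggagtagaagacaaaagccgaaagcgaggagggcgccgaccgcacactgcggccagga

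RefSeq windows of 250 bases before to 50 after the start were at hand for 24 of the 31 genes and were searched on both strands. CCAAT was present for all 14 sterol arm genes with a window, for 3 of 3 regulators and for 4 of 7 fatty acid genes, against 41.06% of 27025 genes. Those 27025 are all genes with a window, whether or not expressed in these cells, while the members all passed the filter on low counts. GGGCGG, the box bound by Sp1, was present for 13 of 14 sterol genes, 3 of 3 regulators and 4 of 7 fatty acid genes, against 38.2% of all genes. The longer sterol element TCACNCCAC was found in 1 of the 24, at Hmgcs1 with its first base at -137 from the start, against 1.44% of all genes. Its shorter form CACNCCAC, which every longer match contains, was found for Hmgcs1 and Insig1, against 7.12%. The stretches shown above do not stand for all members. Tm7sf2 and Acss2, both higher in untreated AE, held CCAAT, while Elovl6, lower in untreated AE, held none. These are matches of letters in 1 fixed window and show no binding.

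Per kilobase of the longest transcript, the median level over the 16 libraries was highest for the desaturases Scd2, at 342 CPM per kb, and Scd1, at 192 CPM per kb. Acly, which makes cytosolic acetyl-CoA from citrate, followed at 63.3 CPM per kb. In the sterol arm Ebp, a sterol isomerase, stood highest at 55.8 CPM per kb, and Hmgcs1, which makes HMG-CoA, stood at 34.0 CPM per kb. The lowest were the sterol reductase Tm7sf2 at 1.36 CPM per kb and Acss2, which makes acetyl-CoA from acetate, at 1.40 CPM per kb. Across libraries Scd1 ranged from 101 to 3825 CPM and Srebf1 from 22.9 to 778 CPM, while Sqle, the epoxidase that commits squalene to sterols, ranged from 97.7 to 174 CPM.

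**Figure D1:**
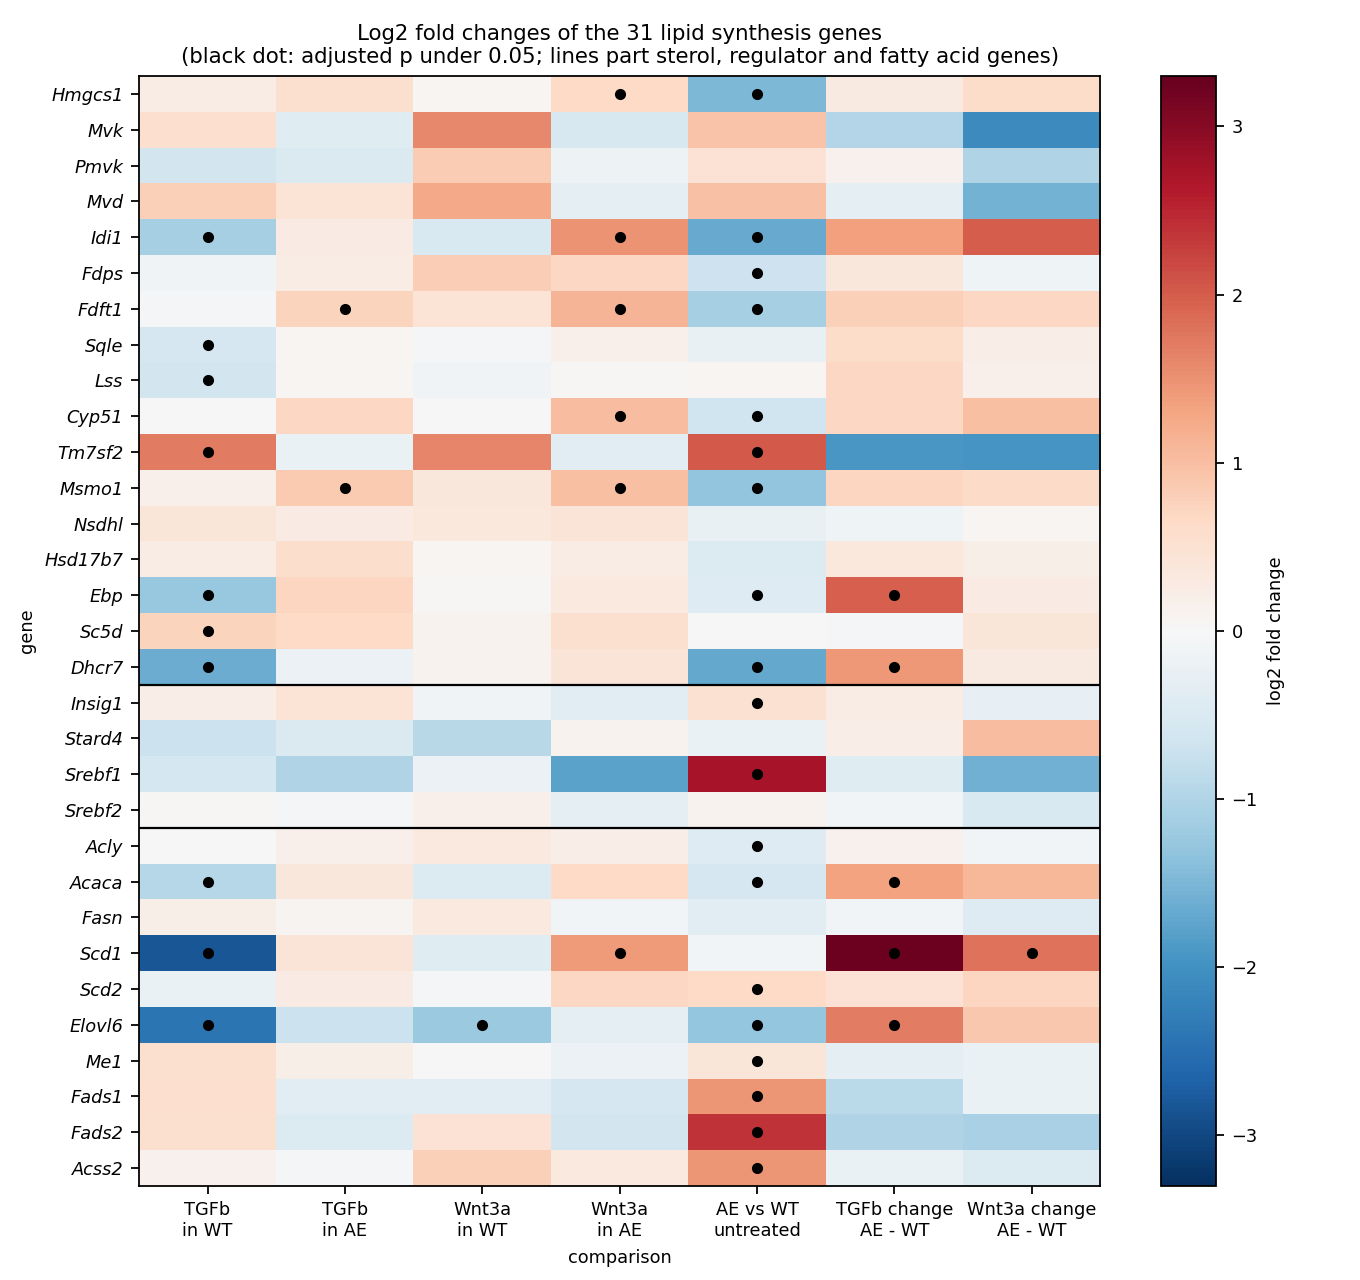
Log2 fold change of each of the 31 genes (rows) in the 7 comparisons (columns), from blue (lower) to red (higher), with a black dot where the adjusted p was under 0.05. The dots are most frequent for AE against WT, with 19, followed by TGFb in WT with 10 and Wnt3a in AE with 6.

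Untreated AE and WT cells were compared over 4 libraries per line, 2 from each experiment. Of the sterol genes, 8 of 17 were lower in AE and 1 was higher, while the fatty acid genes split: the desaturases Fads1, Fads2 and Scd2 and the acetyl-CoA synthetase Acss2 were higher, and Elovl6, Acaca and Acly were lower. Srebf1 was far higher in AE. In all, 19 of 31 genes passed, 8 higher and 11 lower, which is 61.3%. Over all genes tested, 53.8% passed, 27.4% higher and 26.4% lower, so the members' count is near the background. The median log2 fold change was -0.43 in the sterol arm, and 0.14 in the fatty acid arm, where 5 of 10 genes were higher and 3 lower, beside a median of 0.01 over all genes.

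The largest decreases in the sterol arm were those of Dhcr7, Idi1 and Hmgcs1. Levels are given for the 4-day replicates 1 and 2 and then the 3-day replicates 1 and 2. Hmgcs1 stood at 150.2, 133, 203 and 156 CPM in WT and at 48.8, 54.9, 62.8 and 61.1 CPM in AE. All AE libraries lay below all WT libraries (-1.49 ± 0.13, adjusted p = 1.2e-06). Dhcr7, a reductase of the last steps to cholesterol, stood at 191, 206, 105 and 180.1 CPM in WT and at 54.8, 49.2, 53.4 and 49.7 CPM in AE. Here too the lines did not overlap (-1.70 ± 0.16, adjusted p = 3.2e-06). Idi1, which interconverts the isoprenoid building blocks, stood at 59.0, 45.3, 118 and 57.4 CPM in WT and at 17.6, 19.2, 20.8 and 28.5 CPM in AE, with the WT libraries more than 2-fold apart and still all above AE (-1.67 ± 0.26, adjusted p = 1.6e-04). Squalene synthase, Fdft1, stood at 64.2, 61.5, 50.9 and 59.0 CPM in WT and at 24.5, 24.2, 34.3 and 27.0 CPM in AE, without overlap (-1.11 ± 0.13, adjusted p = 2.3e-05). Of the 75-base windows of Fdft1's longest transcript, 19.3% also occur in Ctsb on the opposite strand. Its count in every comparison may thus depend on the counter's strand setting, which is not given. The methylsterol oxidase Msmo1 stood at 117, 96.1, 151 and 93.5 CPM in WT and at 37.5, 45.1, 51.5 and 53.0 CPM in AE, again without overlap (-1.30 ± 0.16, adjusted p = 2.3e-05). Fdps, Cyp51 and Ebp were also lower, with log2 fold changes of -0.68, -0.67 and -0.43. Tm7sf2 went the other way, at 1.34, 1.65, 0.404 and 1.73 CPM in WT and at 4.68, 5.42, 6.72 and 3.76 CPM in AE, higher in every AE library although at low counts (2.01 ± 0.38, adjusted p = 8.1e-04). Sqle did not pass (-0.24 ± 0.12, adjusted p = 0.12).

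Srebf1 stood at 97.7, 164, 22.9 and 107 CPM in WT and at 695, 533, 778 and 413 CPM in AE. Every AE library was above every WT library (2.72 ± 0.45, adjusted p = 2.8e-04), and the spread within each line was wide at 3 days. Srebf2 did not pass (0.11 ± 0.25, adjusted p = 0.72), and with a correction for transcript GC content and length it was lower in AE instead (-0.64, adjusted p = 1.4e-05). Insig1 stood at 49.2, 55.8, 38.7 and 44.7 CPM in WT and at 64.0, 66.6, 57.0 and 76.3 CPM in AE, higher in AE without overlap by a narrow gap (0.50 ± 0.13, adjusted p = 0.0072), although with the 4-day untreated libraries alone its adjusted p was 0.22. Stard4 did not pass (-0.21 ± 0.23, adjusted p = 0.45).

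Among fatty acid genes, Fads2, the first desaturase of polyunsaturated fatty acids, stood at 43.9, 51.8, 16.5 and 41.9 CPM in WT and at 215, 209.8, 185 and 176 CPM in AE. All AE libraries were above all WT libraries (2.39 ± 0.23, adjusted p = 3.6e-06). Its partner desaturase Fads1 stood at 85.0, 87.5, 86.0 and 97.3 CPM in WT and at 262, 265, 157 and 291 CPM in AE, without overlap (1.45 ± 0.19, adjusted p = 3.7e-05). Acss2 stood at 2.75, 2.59, 2.53 and 2.47 CPM in WT and at 7.18, 7.35, 5.66 and 8.01 CPM in AE, also without overlap (1.45 ± 0.19, adjusted p = 4.4e-05). Elovl6, which lengthens palmitate to stearate, ran in the opposite direction at 225, 210.2, 319 and 249 CPM in WT and at 88.1, 97.1, 92.0 and 135 CPM in AE, with every AE library lower (-1.28 ± 0.21, adjusted p = 2.8e-04). Scd2 was higher (0.66) and so was the NADPH-forming malic enzyme Me1 (0.39), while Acaca, which makes malonyl-CoA, and Acly were lower (-0.56 and -0.43). Fasn and Scd1 did not pass (-0.35 ± 0.36, adjusted p = 0.43 for Fasn and -0.10 ± 0.21, adjusted p = 0.72 for Scd1).

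**Figure D2:**
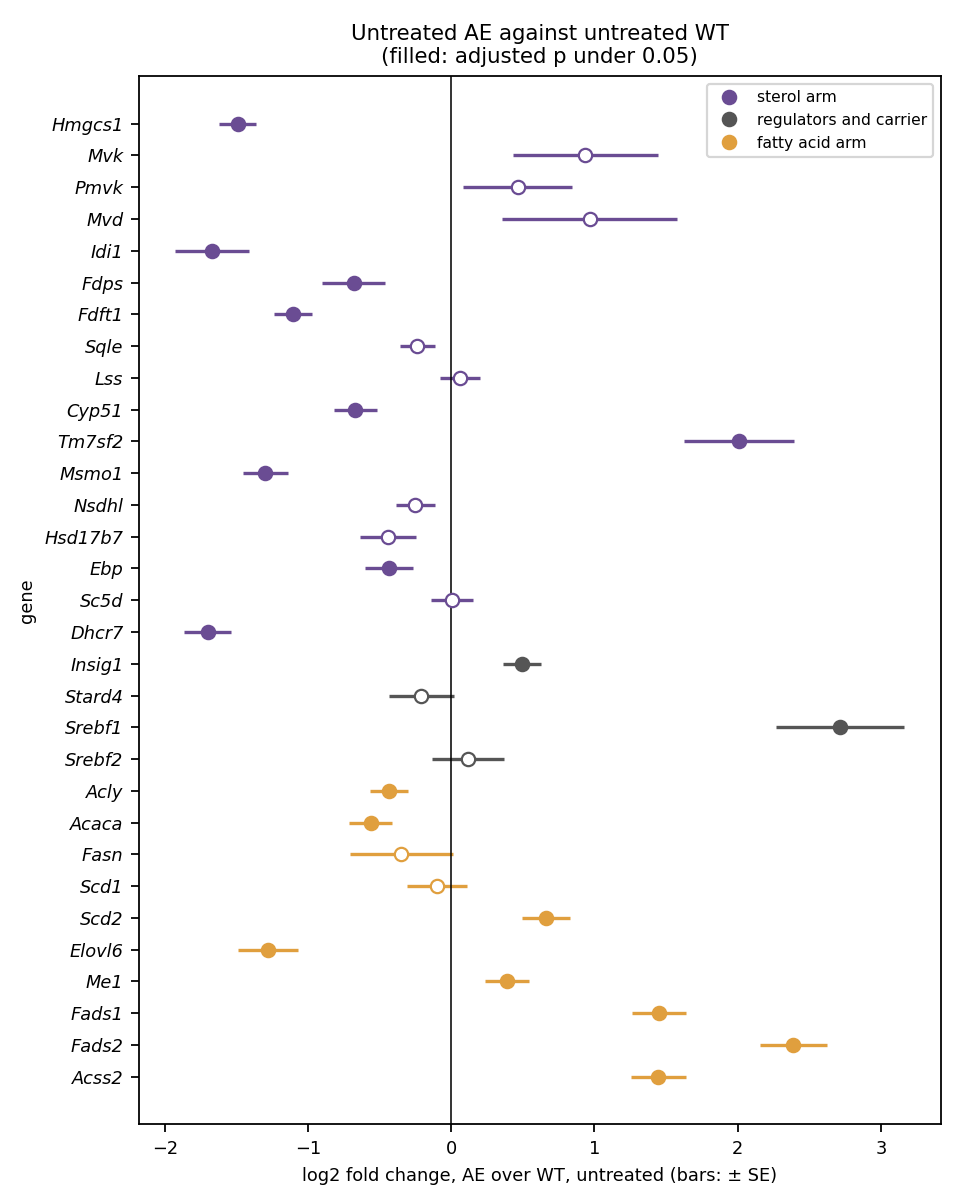
Log2 fold change of AE over WT in untreated cells for each gene (points, with bars of 1 SE; filled where the adjusted p was under 0.05; 4 libraries per line). Hmgcs1, Idi1, Fdft1, Msmo1, Dhcr7 and Elovl6 lie at or below -1.11, while Srebf1, Fads2, Tm7sf2, Fads1 and Acss2 lie at or above 1.45.

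Genes next to these pathways were read against the same 53.8% of all genes. Of the list of 8 other enzymes of the sterol and isoprenoid branches, 6 (75%) were lower in AE and none was higher (median -0.86). These included Acat2, which joins acetyl-CoA units (-0.91, adjusted p = 2.2e-04), and Dhdds, which makes dolichol precursors (-0.81, adjusted p = 0.0014). Another was Hsd17b12, better known as a reductase of fatty acid elongation (-1.14, adjusted p = 1.8e-04). Of 9 genes of sterol uptake, ester storage and efflux, 3 were higher and 1 lower, which at 44.4% is under the background. The cholesterol exporter Abca1 stood at 35.1, 33.5, 51.4 and 43.2 CPM in WT and at 135, 139.8, 139.6 and 167 CPM in AE, without overlap (1.85 ± 0.25, adjusted p = 6.4e-05). Nr1h3, the sterol-sensing nuclear receptor LXR-alpha, had at most 0.0471 CPM in any untreated WT library and 0.825 to 2.59 CPM in AE (adjusted p = 1.0e-05). Of 11 other fatty acid and NADPH supply genes tested, 4 were higher and 2 lower (54.5%, near the background). Among them Thrsp, a lipogenic gene, stood at 0.153, 0.189, 0.202 and 0.164 CPM in WT and at 1.18, 1.24, 2.10 and 1.20 CPM in AE, low in both lines and higher in every AE library (adjusted p = 2.2e-05). Of 6 SREBP processing genes (50% called, again near the background), Insig2 and Erlin2 were higher (0.61 and 0.40) and the protease gene Mbtps2 was lower (-0.72). Of 11 genes of triglyceride and phospholipid assembly, 1 was higher and 1 lower (18.2%). Of 3 fibroblast markers tested 2 were also higher in AE, as was the adipocyte marker Fabp4 at up to 2.55 CPM, and all 3 cycling markers were lower; their part in these differences was not tested. With any 1 of the 8 libraries left out, 15 to 20 members passed. Those that then lost the call were Fdps (without AE 4-day replicate 1 or 2, WT 3-day replicate 2 or AE 3-day replicate 2, adjusted p up to 0.078), Ebp (in 6 fits, up to 0.14), Me1 (in 7 fits, up to 0.12) and Acly (without AE 4-day replicate 1, 0.054); Fdps, Ebp and Acly did not pass with total-count scaling either.

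TGFb in WT cells lowered parts of both arms. In the fatty acid arm the desaturase Scd1, the elongase Elovl6 and the carboxylase Acaca fell, and no gene of that arm was called higher. Of its 10 genes, 6 had a log2 fold change above 0 and 4 below, beside 6982 of all 13172 genes above 0. Me1, Fads1 and Fads2 were higher in both treated libraries than in both untreated ones but did not pass (0.52, 0.55 and 0.53). In the sterol arm Dhcr7, Ebp, Idi1, Lss and Sqle fell, while Tm7sf2 and Sc5d rose. The 10 called members are 32.3% of the 31, beside 27.6% of all genes. By direction, 8 fell (25.8%, beside 12.9% of all genes) and 2 rose (6.45%, beside 14.7%). The arm medians stayed near that of all genes, 0.01 for the sterol arm and 0.08 for the fatty acid arm against 0.06.

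Scd1 stood at 739.7 and 757 CPM in untreated WT cells and at 112 and 101 CPM with TGFb. Both treated libraries were far below both untreated ones (-2.81 ± 0.32, adjusted p = 4.3e-05). Elovl6 went from 225 and 210.2 CPM to 43.0 and 38.9 CPM, likewise without overlap (-2.41 ± 0.31, adjusted p = 1.1e-04). Acaca went from 284 and 281 CPM to 151 and 142 CPM, also without overlap (-0.95 ± 0.21, adjusted p = 0.0051). Of the 75-base windows of Acaca's transcripts, 47.4% also occur in the predicted gene Gm5182, so its count depends on how shared reads were assigned. Fasn, the synthase between Acaca and Elovl6, stood at 597 and 926 CPM untreated and 617 and 1110.1 CPM with TGFb, and did not pass (0.18 ± 0.51, adjusted p = 0.84). Scd2 did not pass either (-0.21 ± 0.23, adjusted p = 0.57).

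Dhcr7 went from 191 and 206 CPM to 60.1 and 67.4 CPM with TGFb in WT. The treated libraries lay below both untreated ones (-1.64 ± 0.23, adjusted p = 2.3e-04). Ebp, 2 steps earlier in the pathway, went from 113 and 112 CPM to 47.5 and 46.5 CPM, without overlap (-1.26 ± 0.24, adjusted p = 0.0019). Sc5d, the desaturase that acts between Ebp and Dhcr7, went the other way, from 71.6 and 59.1 CPM to 115 and 103 CPM (0.74 ± 0.21, adjusted p = 0.02). The 3 enzymes at the end of the pathway thus changed in different directions. Tm7sf2 went from 1.34 and 1.65 CPM to 4.13 and 5.66 CPM, higher in both treated libraries but low throughout (1.71 ± 0.54, adjusted p = 0.032). The lanosterol synthase Lss went from 49.6 and 59.9 CPM to 33.0 and 38.8 CPM (-0.61 ± 0.20, adjusted p = 0.038), and Sqle from 156 and 144 CPM to 108 and 97.7 CPM (-0.54 ± 0.17, adjusted p = 0.035). Idi1 also fell (-1.09 ± 0.36, adjusted p = 0.041), and 20.7% of its 75-base windows are shared with the predicted gene Gm13502. Hmgcs1, Insig1, Srebf1 and Srebf2 did not pass, with log2 fold changes of 0.24, 0.21, -0.59 and 0.03.

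In the related lists, 3 of 9 genes of sterol uptake, storage and efflux rose with TGFb in WT (33.3%, beside 14.7% of all genes) and none was called lower. They were the lysosomal cholesterol carrier Npc2 (0.96, adjusted p = 0.022), the lysosomal lipase Lipa, which frees cholesterol from esters (1.22, adjusted p = 0.0023), and Abca1 (1.07, adjusted p = 0.042). Of 8 other sterol and isoprenoid enzymes 2 fell (25%, beside 12.9% of all genes), Pdss1, which makes the coenzyme Q side chain (-2.44, adjusted p = 8.4e-04), and Acat2 (-0.84, adjusted p = 0.0092). Of 11 other fatty acid and NADPH supply genes 2 fell (18.2%), Thrsp, from 4 counts in each untreated library to 0 in both TGFb libraries (adjusted p = 0.0091), and G6pdx, the NADPH-forming entry to the pentose phosphate pathway (-1.34, adjusted p = 0.0017). The 3 cycling markers summed to 2102 to 2574 CPM in untreated WT and 83.0 to 111 CPM with TGFb; their part in these changes was not tested. With 1 of the 4 WT libraries left out, 5 members passed without untreated replicate 1, 5 without untreated replicate 2, 5 without TGFb replicate 1 and 4 without TGFb replicate 2, where a lone library is assumed to vary like the other groups. Scd1, Elovl6, Dhcr7 and Ebp passed in all 4 fits, Acaca lost the call without TGFb replicate 2 (adjusted p = 0.055), and Idi1, Sqle, Lss, Tm7sf2 and Sc5d lost it in all 4 (adjusted p from 0.051 to 0.25).

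In AE cells TGFb raised Fdft1 and Msmo1, and no member was called lower in the main fit. These 2 of 31 genes are 6.45%, beside 10.4% of all genes, of which 6.09% rose and 4.32% fell. Fdft1 stood at 24.5 and 24.2 CPM untreated and 38.4 and 42.5 CPM with TGFb. Both treated libraries were higher (0.73 ± 0.19, adjusted p = 0.028). Msmo1 stood at 37.5 and 45.1 CPM untreated and 75.7 and 75.1 CPM with TGFb, again without overlap (0.87 ± 0.22, adjusted p = 0.026). In this line 13 of 17 sterol genes had a log2 fold change above 0, beside 6503 of all 13172 genes. The sterol median was 0.27, beside -0.0042 for all genes, and the fatty acid arm, with no call, had a median of 0.12. Srebf1 stood at 695 and 533 CPM untreated and 322 and 297 CPM with TGFb, lower in both treated libraries but not passing (-0.99 ± 0.60, adjusted p = 0.4). In the related lists, the cholesterol exporter Abcg1 rose (1.84, adjusted p = 0.0024), the only call of 9 sterol transport genes (11.1%, beside 10.4% of all genes called). Thrsp fell (-1.73, adjusted p = 0.027), the only call of 11 fatty acid supply genes (9.09%). Neither Fdft1 nor Msmo1 passed when any 1 of the 4 AE libraries was left out (adjusted p 0.099 to 0.25). With the 4-day libraries fitted alone, an alternative chosen after seeing the data, 16 members passed, 11 higher and 5 lower.

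The response to TGFb differed between the lines for 5 members, all with a higher change in AE, which is 16.1% beside 8.83% of all genes (5.04% with a higher and 3.79% with a lower change). Scd1, which fell in WT, stood at 682 and 725 CPM untreated and 917 and 985 CPM with TGFb in AE. Both treated AE libraries were higher, but that change did not pass (0.44 ± 0.30, adjusted p = 0.48), and the difference from WT was 3.25 ± 0.43, adjusted p = 6.6e-04. Ebp in AE stood at 78.6 and 69.7 CPM untreated and 123 and 120.1 CPM with TGFb, higher in both treated libraries where WT had gone lower (difference 1.97 ± 0.34, adjusted p = 0.0032). Elovl6 in AE stood at 88.1 and 97.1 CPM and 53.3 and 59.7 CPM, with both treated libraries below both untreated ones (difference 1.70 ± 0.42, adjusted p = 0.025). Dhcr7 in AE stood at 54.8 and 49.2 CPM and 45.7 and 45.1 CPM, so that its level in untreated AE was already below that of TGFb-treated WT (difference 1.44 ± 0.32, adjusted p = 0.014). Acaca in AE stood at 179 and 194 CPM and 228 and 254 CPM (difference 1.32 ± 0.30, adjusted p = 0.015). The related genes that differed were G6pdx (1.40, adjusted p = 0.026), the carnitine transferase Cpt1a (1.97, adjusted p = 0.0023) and Lipa (-1.23, adjusted p = 0.038). Each was the only call of its list, 1 of 11 (9.09%), 1 of 8 (12.5%) and 1 of 9 (11.1%) in that order. These shares are near the 8.83% of all genes, and the other related lists had no call. Cycling markers summed to 1097 to 1137 CPM in untreated and 492 to 516 CPM in TGFb-treated AE, and their part was not tested. Ebp and Scd1 passed with any 1 of the 8 libraries left out. Only 3 members passed in the fits without WT untreated replicate 1, WT TGFb replicate 2 or AE TGFb replicate 1, and 2 in the other 5, with adjusted p up to 0.078 for Dhcr7, 0.083 for Acaca and 0.11 for Elovl6.

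**Figure D3:**
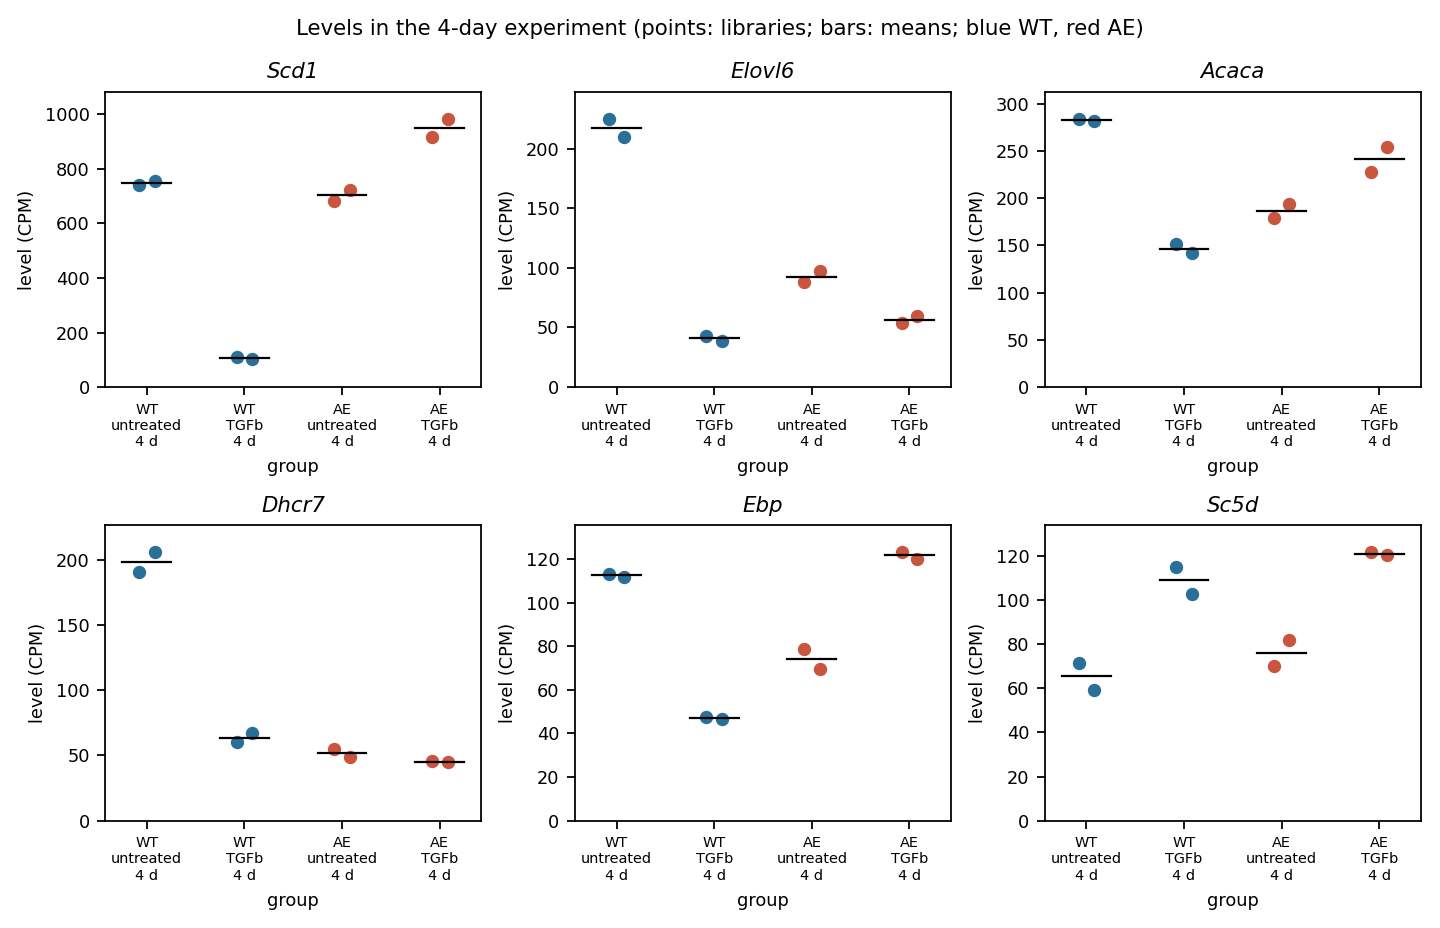
Levels in CPM of Scd1, Elovl6, Acaca, Dhcr7, Ebp and Sc5d in the 4-day experiment (points are libraries, bars group means of 2; blue WT, red AE). With TGFb, Scd1 sits at 112 and 101 CPM in WT and at 917 and 985 CPM in AE.

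With Wnt3a in WT cells, Elovl6 was the only member that passed. It stood at 319 and 249 CPM untreated and 163 and 79.7 CPM with Wnt3a, with replicates about 2-fold apart under Wnt3a and still below both untreated libraries (-1.22 ± 0.30, adjusted p = 0.039). This 1 of 31 is 3.23%, beside 4.28% of all genes, of which 2.26% rose and 2.02% fell. The arm medians were 0.13 for the sterol and -0.01 for the fatty acid genes, beside 0.01. Hmgcs1 stood at 203 and 156 CPM untreated and 195 and 177 CPM with Wnt3a, and Scd1 at 1046 and 1206 CPM and 938 and 768 CPM; neither passed (0.05 ± 0.18, adjusted p = 0.87 for Hmgcs1 and -0.40 ± 0.30, adjusted p = 0.42 for Scd1). No member passed in the fits without untreated replicate 1 or Wnt3a replicate 2, while 7 passed without untreated replicate 2 and 6 without Wnt3a replicate 1. Fitted on the 3-day libraries alone, no member passed. The fibroblast markers summed to 7.22 to 10.2 CPM untreated and 4.77 to 4.88 CPM with Wnt3a, with Pdgfra lower, and the cycling markers to 2494 to 4209 and 886 to 1907 CPM, with no call; their part was not tested.

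In AE cells Wnt3a raised 5 sterol genes, Fdft1, Cyp51, Msmo1, Idi1 and Hmgcs1, and 1 fatty acid gene, Scd1, and no member was called lower. These 6 of 31 (19.4%) stand beside 9.33% of all genes, of which 4.59% rose and 4.74% fell. Hmgcs1 stood at 62.8 and 61.1 CPM untreated and 92.5 and 102 CPM with Wnt3a, without overlap and below the untreated WT level throughout (0.65 ± 0.18, adjusted p = 0.038). Idi1 went from 20.8 and 28.5 CPM to 74.5 and 64.1 CPM, without overlap (1.49 ± 0.36, adjusted p = 0.022). The squalene synthase gene Fdft1 went from 34.3 and 27.0 CPM to 69.4 and 64.2 CPM, above both untreated libraries (1.13 ± 0.19, adjusted p = 0.0026). Cyp51, the lanosterol demethylase, went from 84.9 and 92.6 CPM to 185 and 174 CPM, again without overlap (1.02 ± 0.21, adjusted p = 0.0091), and Msmo1, which acts after it, from 51.5 and 53.0 CPM to 102 and 106 CPM (0.99 ± 0.22, adjusted p = 0.013). They were 2 of 6 genes from Hmgcs1 to Fdps, 2 of 4 from Fdft1 to Cyp51, and 1 of the 7 that follow. The other 12 sterol genes did not pass, among them Sqle (0.17), and 4 of them, Mvk, Pmvk, Mvd and Tm7sf2, had values below 0 (-0.54 to -0.16). The sterol arm median was 0.41 and the fatty acid arm median 0.07, beside -0.03 over all genes. In the same AE libraries the fibroblast markers summed to 201 to 261 CPM untreated and 107 to 116 CPM with Wnt3a (of 3 tested, Pdgfra was lower and Dcn higher), and the adipocyte markers to 2.15 to 2.55 and 0.352 to 0.621 CPM, with Fabp4 lower. Their part in these changes was not tested.

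Scd1 went from 992 and 1101 CPM to 1704 and 3825 CPM with Wnt3a in AE. Both treated libraries were higher, but they were more than 2-fold apart (1.40 ± 0.30, adjusted p = 0.011). Without Wnt3a replicate 2 the change was 0.68 with an adjusted p of 0.14. Srebf1 went from 778 and 413 CPM to 150.0 and 198 CPM, lower in both treated libraries though not passing (-1.78 ± 0.61, adjusted p = 0.1). Between the lines, the Wnt3a response differed for Scd1 alone (1.80 ± 0.42, adjusted p = 0.049), 1 of 31 or 3.23%, beside 2.34% of all genes (1.18% higher and 1.16% lower). Scd1 lost that call without WT untreated replicate 1, WT Wnt3a replicate 2, either AE untreated replicate or AE Wnt3a replicate 2 (adjusted p up to 0.14). In those 5 fits no member differed, while 8 did without WT untreated replicate 2, 5 without WT Wnt3a replicate 1 and 1 without AE Wnt3a replicate 1. For the AE response, 2 members passed without untreated replicate 1, 4 without untreated replicate 2, 2 without Wnt3a replicate 1 and 2 without Wnt3a replicate 2, and Fdft1 alone passed in all 4. Fitted on the 3-day libraries alone, no member passed, with adjusted p from 0.10 for Fdft1 to 0.43 for Hmgcs1.

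**Figure D4:**
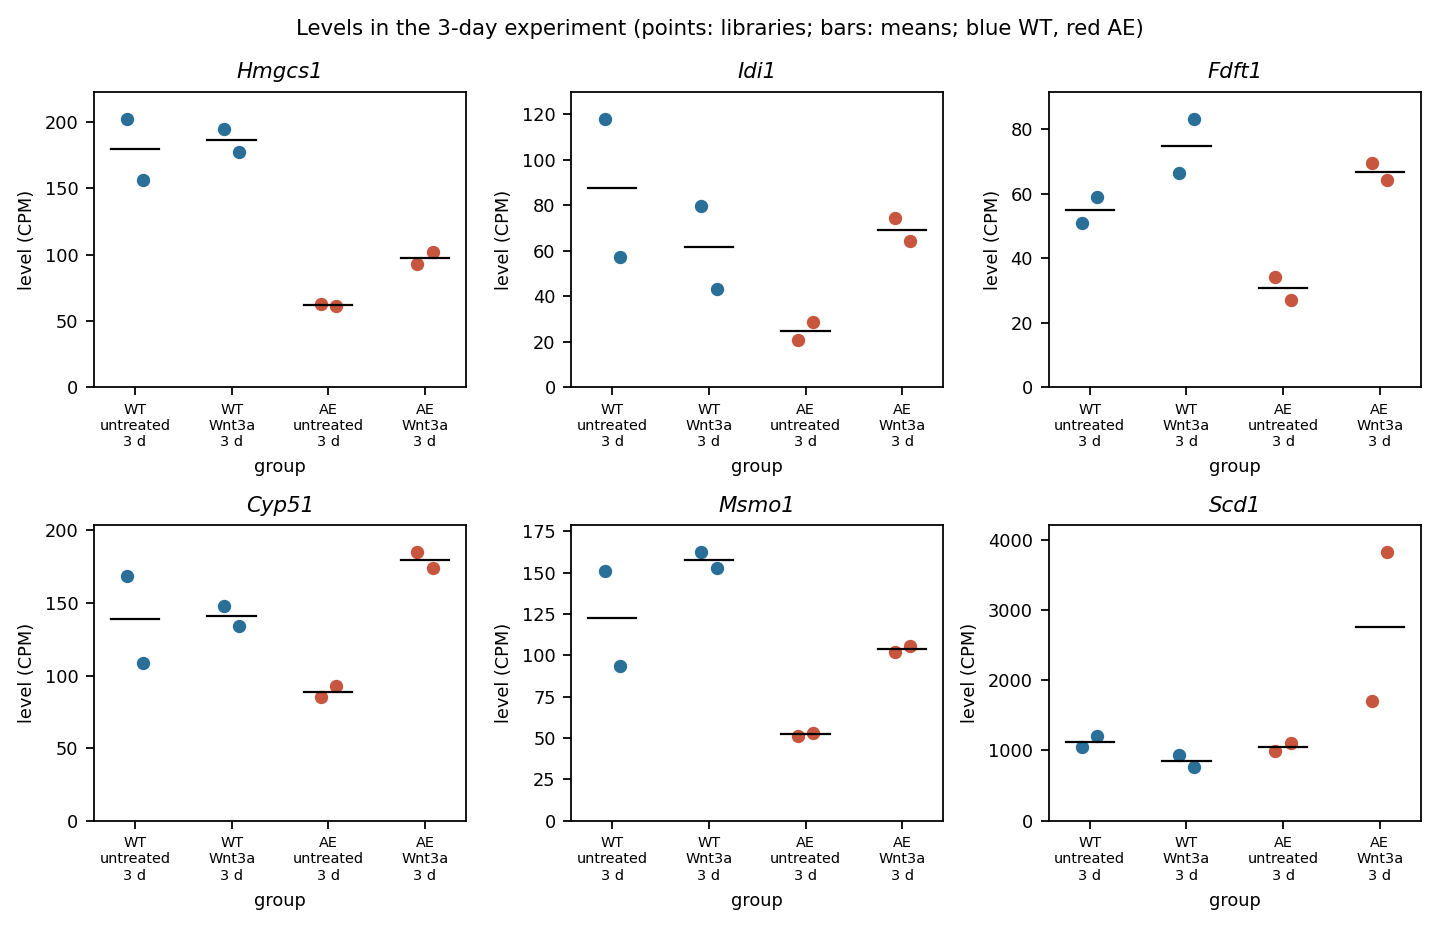
Levels in CPM of Hmgcs1, Idi1, Fdft1, Cyp51, Msmo1 and Scd1 in the 3-day experiment (points are libraries, bars group means of 2; blue WT, red AE). In AE every gene shown lies higher with Wnt3a, and the 2 Wnt3a libraries of Scd1 are at 1704 and 3825 CPM.

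The arms were also followed as means of log2 CPM over their genes in each library, which weight every gene equally. For the sterol arm the untreated 4-day libraries stood at 5.53 and 5.57 in WT and 5.06 and 5.04 in AE, and the TGFb libraries at 5.44 and 5.52 in WT and 5.33 and 5.35 in AE. In the 3-day experiment the untreated libraries stood at 4.97 and 5.44 in WT and 5.27 and 5.02 in AE, and the Wnt3a libraries at 5.48 and 5.85 in WT and 5.62 and 5.52 in AE. In AE both treatments had higher sterol means than the untreated libraries without overlap. In WT the Wnt3a libraries also lay above their untreated libraries, and the TGFb libraries below theirs, without overlap. Those gaps in WT were narrower than the spread between replicates for both TGFb and Wnt3a. With Wnt3a, 14 of 17 sterol genes had a log2 fold change above 0 in WT and 13 of 17 in AE. Over all 13172 genes tested, 6671 did in WT and 6270 in AE. Of the 17, 0 were called in WT and 5 in AE. Replicate 1 of the untreated 3-day WT libraries was low. In all 4 WT groups the log2 ratio of replicate 1 over replicate 2 fell with transcript GC content across 12692 genes (Spearman rho -0.64 to -0.74; genes are not independent replicates). In AE, rho was 0.46 and 0.63 in the untreated 4-day and 3-day pairs, -0.00061 with TGFb and 0.23 with Wnt3a. In the untreated 3-day WT libraries Mvk, mevalonate kinase, with a GC content of 56.3%, stood at 0.657 and 3.82 CPM.

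For the fatty acid arm the untreated 4-day libraries stood at 7.30 and 7.39 in WT and 7.65 and 7.68 in AE, and the TGFb libraries at 6.89 and 6.90 in WT and 7.62 and 7.70 in AE. At 3 days the untreated libraries stood at 7.16 and 7.37 in WT and 7.64 and 7.70 in AE, and the Wnt3a libraries at 7.33 and 7.13 in WT and 7.78 and 7.90 in AE. Every AE library was above every WT library, and TGFb in WT gave the lowest pair. The pooled SD between replicates of these means was 0.17 for the sterol and 0.088 for the fatty acid arm. No test was run on them, since the genes were chosen with results of these data known. The untreated libraries enter both the comparison of the lines and the comparison with each treatment, so these changes share samples.

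**Figure D5:**
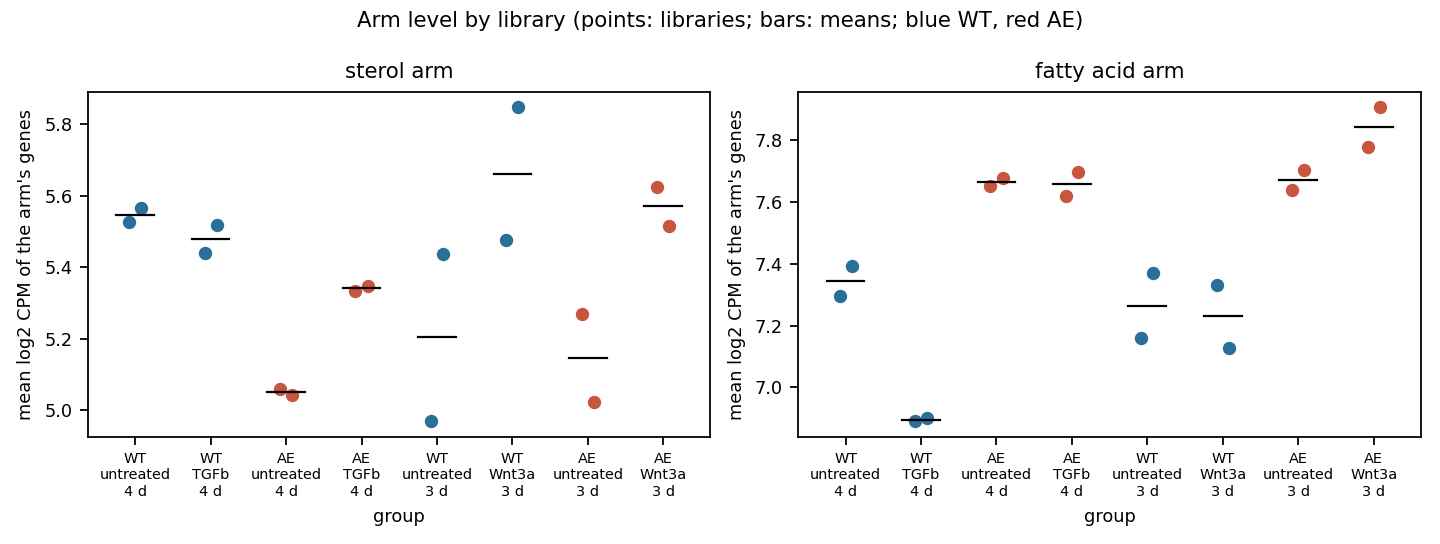
Mean log2 CPM of the 17 sterol genes (left) and the 10 fatty acid genes (right) in each library (points; bars are means of the 2 libraries; blue WT, red AE; the axes do not start at 0). The AE points lie above all WT points for the fatty acid genes. The sterol points of treated AE lie above those of untreated AE, and those of WT with Wnt3a lie above those of untreated WT at 3 days.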

How the data were processed

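The authors deposited 1 table of whole-number counts of reads per gene, with 19665 Entrez IDs and 16 columns that each matched a sample title. Per the labels' protocols, RNA from miRNeasy columns went into TruSeq Stranded mRNA libraries that were read as single reads of 75 bases. The submitters' processing notes name STAR and mm10; for the STAR version, the counter, its strand setting and the annotation, nothing is given in the sources used here. Symbols and coordinates came from the GRCm38.p6 gene table.

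Genes with at least 1 CPM in at least 2 libraries (13172) entered 1 edgeR 4.0.16 quasi-likelihood fit (R 4.3.3) with TMM scaling and 1 mean per group over all 16 libraries. The 7 contrasts were Benjamini-Hochberg adjusted over all genes, and a gene passed at an adjusted p under 0.05. The SE of a fold change was its size over the square root of F. No replicate pair agreed within sampling noise (chi-square per degree of freedom 4.90 to 204), and each library held 20530538 counts or more, so that the number of libraries limits the precision more than depth does.

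The members, the related lists and the rule for naming genes were chosen with earlier results of these data known. That rule took, per comparison, the passing members with the 6 smallest adjusted p-values in the sterol arm and the 4 smallest in the fatty acid arm, passing regulators, and up to 3 passing genes per related list; Srebf1, Srebf2, Insig1, Hmgcs1, Sqle, Fasn, Scd1 and Scd2 could be described regardless, as could a member going against its arm. Alternatives were median-ratio and total-count scaling, no filter or 5 CPM, the replicate number as a block, a GC content and length correction, only the groups compared, the untreated days apart, DESeq2 1.42.0, and each library left out. The crossed and within-line blocks and the fit to 1 experiment were added after seeing the data.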

Additional observations from a re-analysis of the deposited data

Results flagged for a closer look

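For 5 members the response to TGFb differed between the lines by a test of the difference itself, the interaction in edgeR's fit. The difference, AE minus WT on the log2 scale, was 3.25 for Scd1, 1.97 for Ebp, 1.70 for Elovl6, 1.44 for Dhcr7 and 1.32 for Acaca. Untreated AE had less Elovl6, Dhcr7, Acaca and Ebp than untreated WT, so that the starting levels differed too. For Wnt3a the same test passed for Scd1, with a difference of 1.80, and 1 of the AE Wnt3a libraries stood at 3825 CPM where the other stood at 1704 CPM. The causes were not tested.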

How the results depend on the processing

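Over single members, the alternatives other than leaving out 1 library were counted first. Of their values, 2130 kept their direction where called and their side of the threshold, 178 newly passed, 46 lost the call and 2 reversed. Calls lost with 1 library left out are not in these counts. Both reversals were Srebf2 with the GC content and length correction, at -0.42 for TGFb in WT and -0.64 for AE against WT. That correction also gave 18 members called for TGFb in WT, 10 for TGFb in AE, 5 for Wnt3a in WT, 10 for Wnt3a in AE, 10 for the TGFb difference and 5 for the Wnt3a difference. Under it the fatty acid median was -0.23 for TGFb in WT, 0.22 for Wnt3a in WT, 0.29 for Wnt3a in AE, 0.24 for AE against WT and 0.33 for the TGFb difference, and the sterol median was 0.38 for Wnt3a in WT, -0.20 for AE against WT and -0.12 for the Wnt3a difference. Total-count scaling moved the fatty acid median to 0.13 for Wnt3a in WT and 0.25 for AE against WT. Without a low-count filter 1 member passed for TGFb in AE and 2 for the Wnt3a difference; at 5 CPM 0 passed for the latter. With only the groups compared, 21 passed for TGFb in AE, 0 for Wnt3a in WT, 3 for Wnt3a in AE, 15 for the TGFb difference and 0 for the Wnt3a difference. With 1 experiment alone, 16 passed for TGFb in WT, 16 for TGFb in AE and 0 for Wnt3a in either line. DESeq2 called 6 for TGFb in AE, 2 for Wnt3a in WT and 4 for the Wnt3a difference. With the untreated days apart, the fatty acid median of AE against WT was 0.27 at 4 days and the sterol median -0.26 at 3 days. The causes were not tested.

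The labels share replicate numbers across groups but do not say what they pair. The correlation of replicate differences was 0.18 to 0.69 between untreated and treated cells of a line and day and -0.23 and -0.50 between the untreated lines. Between groups of the 2 experiments it was 0.44 to 0.56 in WT and -0.088 to 0.20 in AE. With 2 pairs per comparison and no label on the pairing, the samples are taken to share only a number. The correlations within a line and day are only a hint from the data, and in WT they were not particular to a day. With the replicate number as a block, 0 members passed for Wnt3a in WT and 0 for the Wnt3a difference, and no other count of members moved by over 1.5 times. With the pairing crossed between the lines, the counts were 6 for TGFb in AE, 5 and 10 for Wnt3a in WT and AE, 8 for the TGFb difference and 5 for the Wnt3a difference. Blocks within line and day gave 9, 11, 12, 11 and 15 in the same order.

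With 1 library left out, the members called ranged from 4 to 5 for TGFb in WT, 0 to 0 for TGFb in AE, 0 to 7 for Wnt3a in WT, 2 to 4 for Wnt3a in AE, 2 to 3 for the TGFb difference and 0 to 8 for the Wnt3a difference. The fatty acid median ranged from -0.12 to 0.089 for TGFb in WT, -0.18 to 0.089 for Wnt3a in WT, -0.042 to 0.25 for Wnt3a in AE, -0.038 to 0.30 for the TGFb difference and -0.15 to 0.27 for the Wnt3a difference, and the sterol median of AE against WT from -0.45 to -0.26. With 2 libraries per group, leaving 1 out raised some of these counts and lowered others, and the causes were not tested.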

Other observations

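Genes that use the fatty acids lie outside the synthesis pathways. Of 11 genes of triglyceride and phospholipid assembly, 3 rose and 1 fell with TGFb in AE (36.4%, beside 10.4% of all genes). Acsl4, which activates polyunsaturated fatty acids, stood at 237 and 291 CPM untreated and 755 and 813 CPM with TGFb (1.57 ± 0.40, adjusted p = 0.027), and the phosphatidate phosphatase gene Lpin1 at 18.2 and 16.8 CPM and 36.7 and 36.4 CPM (1.06 ± 0.26, adjusted p = 0.02). Lpin1 rose with TGFb in WT as well (1.13 ± 0.26, adjusted p = 0.0058), the 1 call of that list there (9.09%, beside 27.6% of all genes). With Wnt3a, Acsl1, another acyl-CoA synthetase, was the 1 called gene of the list in each line (9.09%, beside 4.28% of all genes in WT and 9.33% in AE), at 20.6 and 19.8 CPM untreated and 11.3 and 8.06 CPM treated in WT (-1.06 ± 0.23, adjusted p = 0.024) and at 49.8 and 60.9 CPM and 14.0 and 17.9 CPM in AE (-1.80 ± 0.23, adjusted p = 4.7e-04).

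Cpt1a, which brings fatty acids into mitochondria for oxidation, stood at 86.9 and 95.0 CPM untreated and 52.9 and 53.7 CPM with TGFb in WT, and at 59.9 and 61.3 CPM and 134 and 144 CPM in AE. It fell in WT (-0.77 ± 0.23, adjusted p = 0.024) and rose in AE (1.20 ± 0.23, adjusted p = 0.0061). Of 8 oxidation genes tested, 2 were called lower with TGFb in WT and none higher (25%, beside 27.6% of all genes called and 12.9% that fell). With TGFb in AE, 1 was called higher and none lower (12.5%, beside 10.4% called and 6.09% that rose). In untreated AE 3 were higher and 2 lower than in untreated WT (62.5%, beside 53.8%). Counted in either direction, these shares are near those of all genes called.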
